A study of Trichechus manatus latirostris with 11 samples.

Results

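The genes described here encode proteins by which platelets and megakaryocytes, the marrow cells that shed them, are recognized and work. The list held 40 genes and was matched by RefSeq symbol to the 15298 transcript rows of a table of mean normalized counts in manatee buffy coat, the layer of white blood cells and platelets left between red cells and plasma after centrifugation. In all, 23 of the 40 genes had a row, 1 each. The red tide group comprised 4 adult Florida manatees treated for red tide illness at Lowry Park Zoo. The control group comprised 7 adults, of which 4 were sampled at Crystal River, 2 in the Indian River Lagoon (Brevard County) and 1 at Lowry Park Zoo during recovery from pneumonia. Red tide is a bloom of the dinoflagellate Karenia brevis, which releases brevetoxins. Blood was taken into lithium heparin, ribosomal and globin RNA were depleted, and each animal gave 1 library. For the red tide group the methods describe buffy coats frozen at once and archived, and for each animal cells placed in RNAlater in the field. Of the red tide animals, 2 had been in treatment for a week when sampled. Illness, treatment, place, year of sampling and storage therefore cannot be told apart in the comparison.

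The table gives the mean over all 11 libraries and over each group, without naming the groups. The first group mean carried a weight of 4 of 11 in the overall mean and the second a weight of 7 of 11 in every row, to within a relative deviation of 3.3e-09. The first is called the 4-library mean and the second the 7-library mean, after the number of red tide and of control libraries. The publication of these data reads the columns the other way round, with the 7-library mean as that of the red tide group. Which group stands behind which column is therefore unsettled. Values are given by the number of libraries, and no direction between red tide and control is drawn from them. Each mean is a sum of whole reads divided by the size factor of the library (its relative depth), so the reads of single libraries could be recovered where a mean was low. This gave the values of the 4 libraries for 12 of the 23 genes and of all 11 libraries for 5 of them. The 4 libraries had size factors of 1.56, 1.03, 0.620 and 0.372, and the 7 libraries of 0.702 to 1.73. The libraries are named by their size factors, since the table does not link them to animals.

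Platelets have no nucleus and carry RNA inherited from the megakaryocyte. At a damaged vessel the GPIb-IX-V complex catches von Willebrand factor and other receptors bind collagen. Thrombin, ADP and thromboxane then act through their own receptors, granules release adhesive proteins and clotting factors, and the fibrinogen receptor is switched to its binding form. The transcription factors GATA1, FLI1, RUNX1, GFI1B and NFE2 direct the making of megakaryocytes. In a buffy coat, a smaller number of platelets and less RNA per platelet cannot be told apart.

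Of the 23 genes, 20 were higher in the 4-library mean (56.4% of all rows were) and 15 of them at least 2-fold higher, while 1 gene was at least 2-fold higher in the 7-library mean. Among all 15298 rows 23.9% were at least 2-fold higher in the 4-library mean and 10.4% in the 7-library mean, so the share among the genes was 65.2% beside 23.9%. Weakly expressed rows make up much of that background. With rows restricted to an overall mean of at least 10 normalized counts, 12 of 19 genes (63.2%) passed the same threshold, beside 12.3% of 10225 rows. Of the 12, MMRN1 (4-library mean 33.0, 7-library mean 0.0934) and GP1BB (30.2 and 9.53) had a 7-library mean under 10. The overall mean can thus admit a row through the group where it is high, so this share is a description only. Among those 10225 rows the 4-library mean exceeded the 7-library mean in 49.2%, and in 9.59% the latter was at least 2-fold higher. At a threshold of 1.5-fold 16 genes were higher in the 4-library and 2 in the 7-library mean, beside 33.8% and 20.2% of all rows, and at 4-fold 5 and 0 genes, beside 12% and 2.27%. On the log2 scale the ratio (4-library divided by 7-library mean, called the log2 ratio) had a median of 1.03 among the 23 genes and 0.14 among all rows. For most genes only the group means are known, so these are descriptions by size and no spread or test stands behind them. Of the 12 genes with values of the 4 libraries, 8 were at least 2-fold higher, and 5 were without the library of size factor 0.620, beside 30.2% and 26.9% of the 10144 rows with such values.

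**Figure D1:**
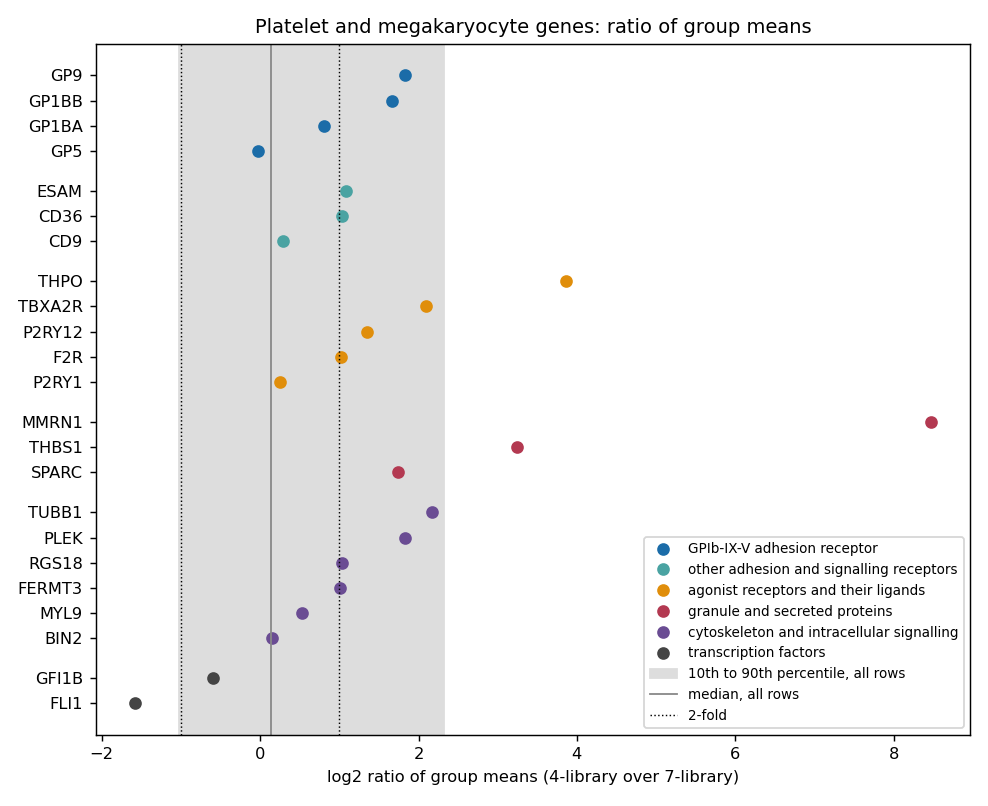
Log2 ratio, 4-library divided by 7-library mean (horizontal axis), for the 23 genes with a row, 1 point per gene, grouped and coloured by role. The grey band spans the 10th to the 90th percentile of all rows (-1.02 to 2.32), and 20 of the 23 points lie to the right of 0, with MMRN1 at 8.47 and FLI1 at -1.58. Among rows with an overall mean of at least 10 the same percentiles were -0.98 and 1.15 (not drawn).

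The GPIb-IX-V complex was complete in the table. GP1BA, the subunit that binds von Willebrand factor, had 38, 46, 111 and 15 reads in the libraries of size factor 1.56, 1.03, 0.620 and 0.372, or 24.4, 44.8, 178.9 and 40.4 normalized counts, with a 7-library mean of 41.1. The library of size factor 0.620 stood above that mean by 4.35-fold and the other libraries lay at 0.593 to 1.09 of it. The ratio of the group means of GP1BA was 1.75 (4-library mean 72.1 ± 71.7, SD, n = 4). Without the library of size factor 0.620 its log2 ratio moved from 0.81 to -0.17.

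GP1BB, the partner subunit joined to GP1BA, had 31.4, 24.3, 59.6 and 5.38 normalized counts in the 4 libraries in the same order, with a 7-library mean of 9.53. Its 4-library mean was 30.2 ± 22.5 (SD, n = 4), 3.17-fold the 7-library mean, and 3 of the 4 libraries lay above the latter. In people GP1BB lies just downstream of a septin gene that can be transcribed into it, and reads of such a transcript could not be separated here. GP9, needed for the complex to reach the surface, had 48.1, 45.8, 151.5 and 18.8 normalized counts, with a 7-library mean of 18.6. All 4 libraries lay above that mean, the one of size factor 0.372 by 1.01-fold only, and the mean ratio was 3.54. Without the library of size factor 0.620 the log2 ratio of GP9 was 1.01 in place of 1.82. GP5, the subunit on which thrombin acts, had 62.9, 87.6, 161.2 and 53.8 normalized counts beside a 7-library mean of 92.995, a ratio of 0.982, and a single library lay above the 7-library mean. All 4 subunits were highest in the library of size factor 0.620. GP1BB, GP9 and GP5 were lowest in the library of size factor 0.372 and GP1BA in that of 1.56.

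Among the other surface proteins, CD36, a receptor for thrombospondin and oxidized lipids that monocytes also carry, had 19.2, 46.7, 112.8 and 2.69 normalized counts in the 4 libraries and a 7-library mean of 22.2. The 4-library mean was 45.4 ± 48.5 (SD, n = 4), 2.04-fold higher, and 2 libraries lay above and 2 below the 7-library mean. ESAM, a junction protein of endothelium and platelets, had 60.3, 51.6, 190.2 and 10.8 normalized counts and a 7-library mean of 36.9, a ratio of 2.12. Both ratios rested on the library of size factor 0.620: without it the log2 ratio of CD36 was 0.04 in place of 1.03 and that of ESAM 0.15 in place of 1.08. CD9, a tetraspanin of platelets and many leukocytes, had means of 1444 over the 4 libraries and 1182 over the 7, a ratio of 1.22.

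The 4 receptors for soluble agonists and the hormone gene THPO were all higher in the 4-library mean, beside 56.4% of all rows. Of these 5 genes 4 passed 2-fold, beside 23.9% of all rows, and 2 of the 4 (TBXA2R and THPO) were known from few reads. F2R, the thrombin receptor, had means of 1388 and 682.7 (4-library and 7-library), a ratio of 2.03. P2RY12, the ADP receptor blocked by clopidogrel, had means of 217.8 and 85.4, a ratio of 2.55. P2RY1, the other ADP receptor, had 62.2, 18.5, 61.2 and 21.5 normalized counts in the 4 libraries and a 7-library mean of 34.3. The libraries of size factor 1.56 and 0.620 were alike and above the 7-library mean, the other 2 were below it, and the ratio was 1.19.

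TBXA2R, the thromboxane receptor, was known from few reads: 2, 0, 10 and 0 in the 4 libraries, and 2 and 6 in 2 of the 7 libraries with none in the others. The groups overlapped, and the mean ratio of 4.27 came from the library of size factor 0.620. Without it the log2 ratio of 2.09 became -1.25. The exact two-sided permutation test over the 11 libraries gave p = 0.515, or 0.8289 with Benjamini-Hochberg adjustment over the 4446 rows with reads of all 11 libraries. THPO, which encodes the hormone thrombopoietin and is made chiefly in liver, had 0, 0, 6 and 2 reads in the 4 libraries and 2 reads, both in 1 library, in the 7. Its ratio was 14.6 (exact permutation p = 0.218, adjusted 0.514). The 95% Poisson interval of the 2 reads in the 7 libraries allows 4.03 to 120.35. It holds the 4-library mean fixed and so covers the counting error of those 2 reads only. Without the library of size factor 0.620 the log2 ratio of THPO moved from 3.87 to 2.80. Both mates of a pair may be counted, so 2 reads can come from 1 fragment.

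All 3 genes for secreted proteins with a row passed 2-fold, beside 23.9% of all rows. THBS1 encodes thrombospondin, which platelets store in alpha granules and monocytes and other cells also make, and its row (XM_004380613.1) held 19820.1 normalized counts as the 4-library mean and 2099 as the 7-library mean. The ratio of 9.44 was exceeded by 5.81% of all rows. These means are too high for reads of single libraries to be recovered, so whether 1 library decides the value of THBS1 is not known.

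MMRN1 (XM_004389013.1) encodes multimerin, the carrier of factor V in platelet alpha granules and endothelial cells. It had 0, 6, 45 and 20 reads in the 4 libraries, or 0, 5.84, 72.5 and 53.8 normalized counts, and 1 read in 1 of the 7 libraries with none in the other 6. The 0 reads in the library of size factor 1.56 allow up to 3 reads, or 1.92 normalized counts. Thus 3 of the 4 libraries lay above every one of the 7, and the fourth tied with 6 of them at 0. The ratio of the means was 354, with a 95% Poisson interval from the single read of 63.5 to 13979.5. This interval holds the 4-library mean fixed and covers the counting error of that read only. With the library of size factor 0.620 left out, the log2 ratio of MMRN1 moved from 8.47 to 7.73. The exact permutation p was 0.0485 and the adjusted p 0.324, with 0.141 to 0.654 when each library was left out in turn and 0.335 on log2(normalized count + 1). Reads can be recovered up to a mean of 100 in the 4 libraries but only up to 6 in the 7, so the tested rows favour this direction, and 15% of them had an unadjusted p under 0.05, beside 4.75% of the 3055 rows with both means up to 6.

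SPARC, a matrix protein of platelet granules and stromal cells, had 5.77, 1.95, 21.0 and 10.8 normalized counts in the 4 libraries. In the 7 libraries it ranged from 0 to 6.71 with a median of 2.72. The libraries of size factor 0.620 and 0.372 lay above all 7, the others within their range, and the ratio of the means was 3.34 (exact permutation p = 0.0909, adjusted 0.398). Without the library of size factor 0.620 the log2 ratio of SPARC was 1.06 in place of 1.74. In none of the 5 genes with reads of all 11 libraries did each of the 4 libraries lie above each of the 7 (0 of 5), which held for 2.81% of the 4446 rows (the reverse held for 0.0675%), and none had an adjusted p under 0.05, as no row did (0%). The lowest adjusted p of those rows was 0.211, from the smallest exact permutation p of 0.00606 that 330 splits allow. A gene with all libraries separated would therefore not have passed 0.05, and the adjusted values cannot decide whether these genes differ. MMRN1 was the 1 gene of the 5 with an unadjusted exact permutation p under 0.05.

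**Figure D2:**
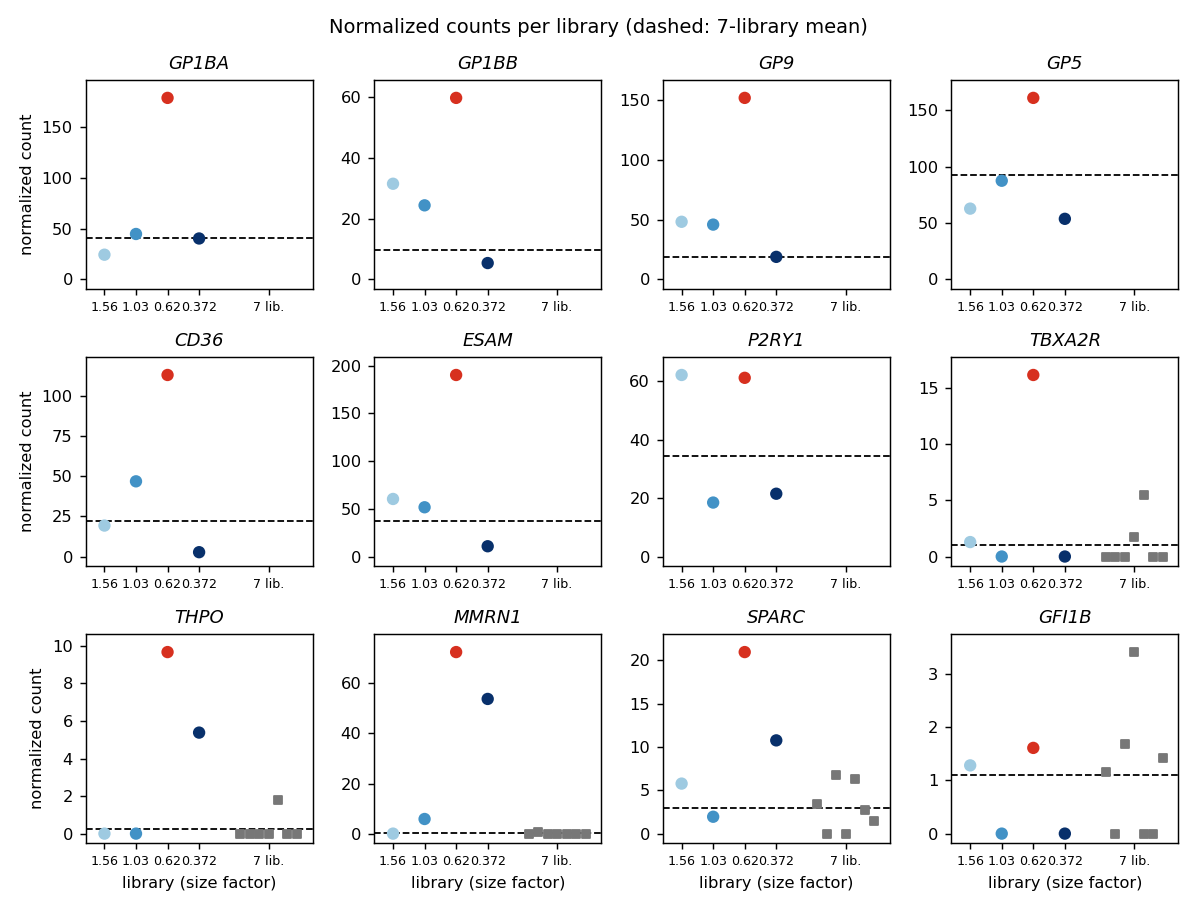
Normalized counts (vertical axes, linear) of the 12 genes with recovered reads in each of the 4 libraries, labelled by size factor (circles, red for 0.62), with the 7-library mean as a dashed line and, for the 5 genes where they are known, the values of the 7 libraries as grey squares in order of falling size factor. The red point is the highest of the 4 in every panel but P2RY1.

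The genes that work inside the cell were all higher in the 4-library mean, beside 56.4% of all rows, and 4 of 6 by 2-fold or more, beside 23.9%. TUBB1 (XM_004370530.1), the tubulin of the ring of microtubules that shapes the platelet, had means of 6392 and 1422 (4-library and 7-library), a ratio of 4.49. PLEK, a protein kinase C substrate of platelets and leukocytes, had means of 3761 and 1058, a ratio of 3.56. RGS18, which limits signalling from G protein-coupled receptors, had means of 4974 and 2440 and a ratio of 2.04. FERMT3, kindlin of blood cells, which switches integrins to their binding form, had means of 1619 and 803.4 and a ratio of 2.02. MYL9, a myosin light chain, had means of 147.2 and 102.4, and BIN2, a membrane-bending protein of leukocytes and platelets, means of 2928 and 2642, ratios of 1.44 and 1.11. TUBB1 and MYL9 have close paralogs, so their values are uncertain where reads could fit more than 1 copy. F2R, FERMT3, RGS18, CD36 and ESAM lay so near 2-fold that subtracting the median log2 ratio of all rows (0.14) took them under it.

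Only 2 of the 5 transcription factors listed, FLI1 and GFI1B, had a row. FLI1 (XM_004379333.1), an ETS factor of megakaryocytes that lymphocytes and other leukocytes also express, was the gene at least 2-fold higher in the 7-library mean, with means of 838.4 over the 7 libraries and 281.0 over the 4, a 2.98-fold difference. A lower ratio was found in 4.07% of all rows. GFI1B, a repressor of the megakaryocyte and erythroid lineages, had 2, 0, 1 and 0 reads in the 4 libraries and 9 reads in 4 of the 7. The groups overlapped (4-library over 7-library ratio 0.660, exact permutation p = 0.697, adjusted 0.894). The log2 ratio of GFI1B was -0.60, with -1.36 without the library of size factor 0.620 and 0.03 without the 7-library one of 1.17, so its direction rested on single libraries.

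The remaining 17 genes had no row under their RefSeq symbol and are not analysed here. Of these, 15 have a symbol in the RefSeq gene table with other record numbers: the transcription factors NFE2, RUNX1 and MEIS1, the receptors GP6, CLEC1B, TREML1, PEAR1 and F2RL2, the enzymes PTGS1 and TBXAS1, the granule proteins VWF, SELP, F13A1 and LTBP1, and RGS10. PF4 and PPBP, the platelet chemokines, have no symbol there. The table as analysed here holds no row with a mean of 0 in either group, so a gene without reads in 1 group would have no row.

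In the 4-library group the spread between libraries was wide. Among the 8 genes with recovered reads and a 4-library mean of at least 10, the library of size factor 0.620 was the highest in 7, a place it took in 29.4% of the 5487 rows with such values. It held 37.5% to 62.2% of the summed normalized count of the 4 libraries for these 8 genes, with a median of 56.1%, beside a median of 25.7% over those rows. The library of size factor 0.372 was the lowest in 5 of the 8 genes, beside 24.3% of rows. It was the highest in 35.4% of rows and in none of the 8 genes. The libraries of size factor 1.56 and 1.03 were the highest in 19.2% and 16.1% of rows, and in 1 gene (P2RY1) and 0 genes. With the library of size factor 0.620 left out, the median log2 ratio of the 12 genes with reads fell from 1.37 to 0.09, and the genes still at least 2-fold higher were GP1BB, GP9, THPO, MMRN1 and SPARC. Leaving out the library of size factor 1.56, 1.03 or 0.372 left 9, 8 and 9 of the 12 genes at least 2-fold higher, beside 32%, 31.7% and 26.9% of rows.

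**Figure D3:**
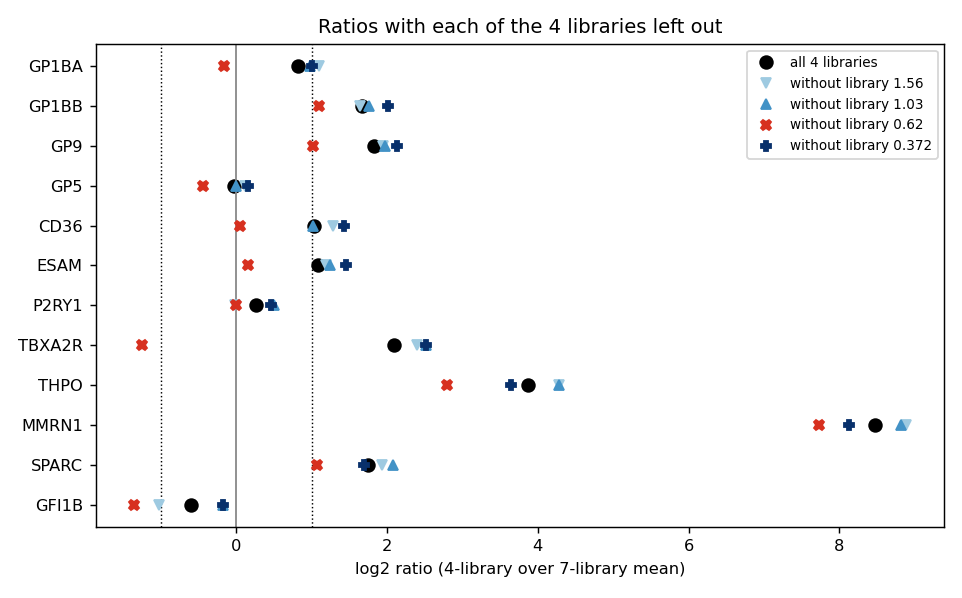
Log2 ratio, 4-library divided by 7-library mean (horizontal axis), for the 12 genes with recovered reads, with all 4 libraries (black circles) and with each of the 4 left out in turn (coloured markers named by size factor; dotted lines at 2-fold). Without the library of size factor 0.62 the values of GP1BA, CD36 and ESAM come to -0.17, 0.04 and 0.15, and that of TBXA2R changes sign to -1.25.

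Further platelet genes were taken from lists by role, which like the 40 genes were drawn up with earlier results of these data known. Of 24 further platelet surface genes and integrins 12 had a row. In this list 11 were higher in the 4-library mean and 10 at least 2-fold higher (median log2 ratio 1.13). For this and the following lists the shares over all rows were 23.9% at least 2-fold higher in the 4-library and 10.4% in the 7-library mean. ITGB3 had means of 4725 and 1019, a ratio of 4.64, and its partner ITGA2B (named after its value had been seen, as the other chain of the fibrinogen receptor) had means of 3996 and 1919, a ratio of 2.08. PTGIR, the prostacyclin receptor, had 12.8, 13.6, 77.4 and 10.8 normalized counts in the 4 libraries and a 7-library mean of 6.22, the library of size factor 0.620 again standing apart. JAM3, an adhesion protein of endothelium and platelets, had 10.9, 11.7, 9.67 and 18.8 normalized counts and a 7-library mean of 3.30, so all 4 libraries lay above that mean and the one of 0.620 was the lowest. FCER1G, the signalling chain of the collagen receptor that myeloid cells also use, was the 1 gene of the list that was lower in the 4-library mean, 110.1 beside 211.5.

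Transcription factors of the lineage outside the 40 genes were mixed, with 3 of 14 rows at least 2-fold higher in the 4-library mean, 2 at least 2-fold higher in the 7-library mean, and a median log2 ratio of 0.26. GATA1 (named after its value had been seen) had means of 417.8 and 288.4, a ratio of 1.45. MECOM, a factor of stem cells and megakaryocytes, had 0, 5.84, 66.1 and 10.8 normalized counts in the 4 libraries and a 7-library mean of 0.0826. That mean is the value of 1 read in the 7-library one of size factor 1.73, the smallest 7-library mean of any row. One record of GABPA passed 2-fold (ratio 2.61) and the other did not (1.34), and MAFK, a small partner of NFE2, had 57.7, 34.1, 51.6 and 45.7 normalized counts beside a 7-library mean of 21.1. MRTFA was lower, with means of 22.0 and 84.6 (4-library and 7-library), and so were both records of CBFB, the partner of RUNX1, with means of 235.5 and 447.2 and of 11.7 and 13.03.

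Lists of signalling, granule and cytoskeletal genes, most of which other blood cells also express, had medians nearer to that of all rows. Signalling genes had 4 of 18 rows at least 2-fold higher in the 4-library mean and 1 in the 7-library mean (median log2 ratio 0.04). Their largest ratio at a mean of at least 10 was that of GNA13 (2.61) and their smallest that of APBB1IP (0.390). Granule and secretion genes had 5 and 4 of 19 rows (median 0.11). IGF1 (ratio 4.42) and PROS1, a cofactor of anticoagulant protein C (3.47), were the highest at a mean of at least 10, while NBEAL2, needed to form alpha granules, had means of 92.2 and 326.7 and LYST, a lysosomal trafficking regulator, means of 7531 and 20291. Cytoskeletal genes had 2 and 4 of 22 rows and a median of -0.46, with PDLIM1 the highest (2.27) and CFL1, which severs actin filaments, the lowest (0.437) among rows with a mean of at least 10.

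Markers of other cell types moved with the groups too. Of the 8 neutrophil marker rows 7 were at least 2-fold higher in the 7-library mean (median log2 ratio -2.53), with a summed mean of 2157 over the 4 libraries and 12505 over the 7. MPO was the exception, at means of 4.44 and 2.34. Monocyte markers had summed means of 2488 and 2820.5, with 2 of 6 rows at least 2-fold higher in the 4-library mean, and CD14, CD163 and FCN1 had no row. Endothelial markers were found for 5 of 12 genes, with CDH5, TEK, ENG and EMCN without a row. Of these, 2 were at least 2-fold higher in the 4-library mean, FLT1 with 0.641, 3.89, 64.5 and 5.38 normalized counts in the 4 libraries and CLDN5 with reads in 2 of them. TIE1 was 5.87-fold higher in the 7-library mean (0.321 and 1.88), EGFL7 had means of 0.321 and 0.565, and KDR, the marker with the highest means, had 449.2 and 291.5. The median log2 ratio of the 5 rows was 0.62. All 4 stromal rows (FBN1, PDGFRA, PDGFRB and FN1) were at least 2-fold higher, with a median log2 ratio of 2.68 and summed means of 98.0 and 40.0262, and the collagen genes listed had no row. Erythroid markers had summed means of 200.2 and 505.1, T cell markers 362.9 and 498.5, and B cell markers 914.5 and 957.6. Between 0 and 1 row of the erythroid, T cell and B cell lists passed 2-fold in either direction. At a 4-library mean of at least 10, the library of size factor 0.620 was the highest of the 4 in 3 of 3 neutrophil, 2 of 2 erythroid and 1 of 1 endothelial rows and in 0 of 2 monocyte, 0 of 2 stromal, 0 of 1 T cell and 0 of 2 B cell rows. The part of these cell types in the values of the platelet genes was not tested.

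**Figure D4:**
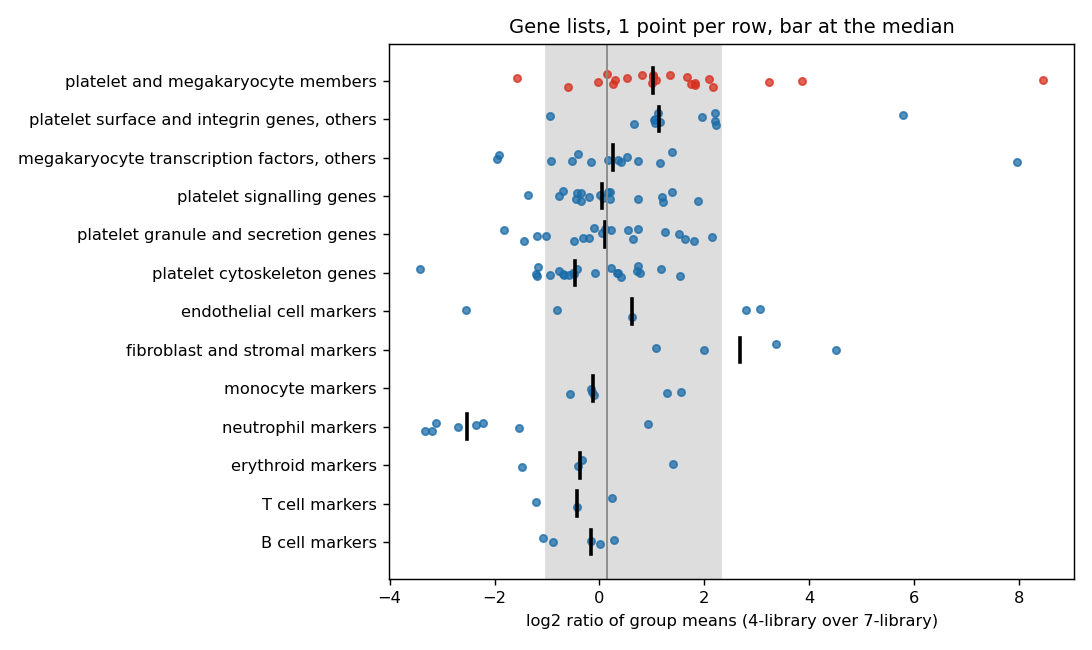
Log2 ratio, 4-library divided by 7-library mean (horizontal axis), for the platelet and megakaryocyte genes (red) and for the fixed lists (blue), 1 point per transcript row, with a black bar at each median, the grey band from the 10th to the 90th percentile of all rows and the grey line at their median. The medians of the platelet genes (1.03) and of the other platelet surface genes (1.13) lie to the right of that of all rows. Those of the stromal (2.68, 4 rows, mostly of low means) and endothelial markers (0.62, 5 rows) do so too, and that of the neutrophil markers (-2.53) lies to the left.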

How the data were processed

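Libraries from buffy coat, 4 of red tide animals and 7 of controls, were sequenced. The authors filtered reads with Cutadapt, aligned them to TriManLat1.0 by Bowtie2, dropped PCR duplicates and counted reads with a unique position. The sources used here do not name the counting program, annotation release or use of strand. The signal deposited by the authors is a group's mean of counts scaled by their DESeq size factors. The table's other columns, the authors' fold change, its log2 value, p-value and adjusted p-value, were not used. No column held a single sample (0 left unused).

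Groups came from the sample labels, and columns are named by their weights of 4 and 7, since their groups are unsettled. What 1 read is worth in each library was read from the lowest means and refined by least squares. Reads were then searched for means up to 100 (4 libraries) or 6 (7 libraries), within 6e-10 below a mean of 10 and 6e-09 above, and kept where a single combination fitted, which held for 10144 of 10159 and 4460 of 4505 rows. On simulated data, 99.8% of 1416 and 99.6% of 549 genes gave 1 combination, and 100% of these were true. Totals per library are unknown, so size factors (largest 4.66 times the smallest) stand for depth. Intervals and limits from counts cover counting error only, and the intervals of ratios hold the 4-library mean fixed.

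Records were matched without version to RefSeq symbols of TriManLat1.0, which gave 10080 rows (65.9%) a symbol. All 40 genes were reported, with up to 3 genes in each direction from the other lists, at a higher group mean of at least 10. Where a list had many such genes, fewer were named. Genes and lists were chosen with earlier results of these data known. A ratio of group means of 2 or more was the threshold. Exact two-sided permutation tests used all 330 splits, whose smallest p is 0.00606, and measure the spread between animals sampled once. Alternatives concerned a pseudocount of 1, low means, centring, thresholds of 1.5 and 4, and single libraries. The planned promoter motif search was not run, since promoter sequences were not used here. Python 3.11.15, NumPy 2.4.6, SciPy 1.17.1, pandas 2.3.3 and Matplotlib 3.10.9 were used.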

Additional observations from a re-analysis of the deposited data

Results flagged for a closer look

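Among 17 sets of library values of single genes (12 genes in the 4 libraries and 5 in the 7), 5 had a highest library whose gap to the next exceeded Dixon's 95% limit. Chance flags about 1 in 20 sets of continuous values. That rate does not hold for sets with reads in 1 library only, as for THPO and MMRN1 in the 7 libraries, where the limit is passed by construction, and the sets share libraries. In the 4-library group these were GP1BA, at 178.9 normalized counts in the library of size factor 0.620, and TBXA2R, at 16.1 in the same library. In the 7-library group they were TBXA2R (5.42) and THPO (1.81), both highest in the library of size factor 1.11, and MMRN1 (0.654). The last of these values is 1 read and that of THPO is 2 reads.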

How the results depend on the processing

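The count of genes at least 2-fold higher in the 4-library mean (15) was 10 with the median of all rows subtracted, 12 at an overall mean of at least 10, 14 with a pseudocount of 1, 16 at a threshold of 1.5 and 5 at a threshold of 4. The count in the other direction (1) was 2 at a threshold of 1.5 and 0 at a threshold of 4. The median log2 ratio (1.03) was 0.89 with the median of all rows subtracted. Among the 12 genes with reads, the count of 8 ranged from 5 to 9 with each of the 4 libraries left out, an alternative added after the data had been seen. With single libraries left out the log2 ratio of TBXA2R ranged from -1.25 (reversed, without the library of size factor 0.620) to 3.93 (without the 7-library one of 1.11). The log2 ratio of GP1BA (0.81) changed sign to -0.17 (0.620 left out). That of GFI1B (-0.60), known from few reads, changed to 0.03 (the 7-library one of 1.17 left out). The log2 ratios of GP5 (-0.03) and P2RY1 (0.25), both near 0, also changed sign, GP5 to 0.16 (0.372 left out) and P2RY1 to -0.02 (1.56 left out). With a pseudocount of 1 the log2 ratio was 4.96 for MMRN1 (8.47 without) and 1.92 for THPO (3.87 without). MMRN1 and THPO have no ratio without the 1 library of the 7 that held their reads. For the 5 genes tested no exact permutation test passed an adjusted p of 0.05 under any alternative run (lowest 0.141, MMRN1 without the library of size factor 1.56). There the exact permutation p of MMRN1 was 0.0167, the smallest possible with 1 of the 4 libraries left out. No gene could have passed in that setting, so these adjusted values do not show whether a result holds. No paired analysis was possible because the columns carry no replicate number.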

Other observations

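A platelet receptor and a signalling gene of low level, chosen after their values had been seen, were highest in another library than most of the genes above. ADRA2A, the adrenaline receptor of platelets, had 0, 0, 1.61 and 26.9 normalized counts in the libraries of size factor 1.56, 1.03, 0.620 and 0.372. Its 7-library mean was 0.129, the value of 1 read in 1 library. PRKCQ, a protein kinase C of platelets and T cells, had 1.28, 0, 4.84 and 32.3 beside a 7-library mean of 4.20. Both were highest in the library of size factor 0.372, the lowest one for GP9, GP1BB, GP5, CD36 and ESAM.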
